A study of Mus musculus with 12 samples.

Results

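RNA carried down by a control immunoglobulin (IgG IP) was compared with the RNA of the whole lysate (Input), to describe which genes make up the background of an RNA immunoprecipitation. The comparison used the 4 IgG IP and the 4 Input libraries, chosen by their titles, 8 of the 12 libraries of a study of the RNA-binding protein CPEB4. All cells were 3T3-L1, an established mouse preadipocyte line. Until day 2 they had been held in an induction medium with rosiglitazone (2 µM), insulin (10 µg/mL), dexamethasone (1 µM) and IBMX (0.5 mM), and from then to day 8 in medium with insulin alone. Both groups had then been exposed for 24 h to 500 µM of a fatty acid mixture made up of palmitic acid at 300 µM with linoleic and oleic acid at 100 µM each, so no group was untreated. Per the labels, poly(A) purification was done on the Input RNA alone, and the libraries were amplified with 12 or 18 PCR cycles without a statement of which had which. Precipitation and the lack of poly(A) selection therefore cannot be told apart in any value given here. In these bulk samples, fewer cells of a type and less RNA per cell cannot be told apart either. The labels do not say whether replicates were separate cultures, so the p-values rest on a spread between libraries that may be technical only.

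In an RNA immunoprecipitation, an antibody to an RNA-binding protein is used to pull the protein out of a lysate together with its transcripts. A control immunoglobulin with no target in the cell shows what adheres to beads, tube and antibody regardless of the protein, and transcripts differ in how much they do so. The 3′ UTR, the stretch between the stop codon and the poly(A) tail, holds the binding sites of proteins such as CPEB4. Its length varies widely between genes, and transcripts for ribosomal and respiratory chain proteins are known for short ones.

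The deposited table gave read counts for 20586 transcript 3′ UTRs (features) in mm10 coordinates. Totals ran from 858028 to 1578084 counts in Input and from 88013 to 622976 in IgG IP. All IgG IP libraries were thus shallower than any Input library. A limit of 3 counts corresponded to between 1.96 and 3.21 scaled CPM (counts per 1000000 counts of the library, scaled by the TMM method) in Input and to between 8.85 and 22.4 in IgG IP. Reads carried no molecular identifiers, so intervals and limits cover counting error only. Replicates 1 and 2 resembled each other, as did replicates 3 and 4, and the titles give these pairs library numbers from 2 separate ranges. Between IgG IP replicates, the chi-square per degree of freedom of the counts was 1.63 and 1.64 within the pairs and 13.9 to 16.3 across them. In Input it was 10.9 and 25.9 within the pairs and 32.6 to 40.7 across them.

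A single feature, the 986-base 3′ UTR of Lars2 (ENSMUST00000038863, mm10 chr9:123461679-123462664), gave the largest share of counts in every one of the 8 libraries. Lars2 encodes the mitochondrial leucyl-tRNA synthetase. Its share was 12.2%, 14.1%, 7.79% and 7.99% in Input replicates 1 to 4, and 28.6%, 29.7%, 63.9% and 63.1% in the IgG IP replicates. The groups did not overlap, and the IgG IP libraries of replicates 3 and 4 stood far above those of replicates 1 and 2. The means were 46.3 ± 19.9% against 10.5 ± 3.13% (SD, n = 4 each; exact two-sided sign-flip test p = 0.13, the smallest that 4 pairs allow). Lars2 rose in edgeR's quasi-likelihood test with the replicate number as a block and Benjamini-Hochberg adjustment, which gives every adjusted p here unless another is named (log2 fold change 2.19, SE 0.72, adjusted p = 0.0288). The call was lost without replicate 4 (1.55, adjusted p = 0.199), in DESeq2's Wald test (2.35, adjusted p = 0.0740) and in replicates 1 and 2 alone (0.41, adjusted p = 0.0546). The RefSeq annotation used here lists no other gene within the feature, but it covers genes only and not repeated sequences. Whether all of these reads came from Lars2 transcripts was not tested.

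After Lars2, the 9 features with the highest mean share of IgG IP counts were Lpl, Scd1, Sh3pxd2a, Mdm2, Ccnd2, Ywhag, Acsl1, Scd2 and Slc35e3. Ywhag, a 14-3-3 adaptor protein, has a 2586-base 3′ UTR (ENSMUST00000055808, mm10 chr5:135908409-135910994) and stood at 136, 141, 168 and 142 scaled CPM in Input and 2594, 2585, 3315 and 4269 in IgG IP. Every IgG IP library was more than 10 times above every Input library, and the feature rose (log2 fold change 4.41, SE 0.31, adjusted p = 3.45e-06). Sh3pxd2a, a scaffold protein of podosomes with a 6813-base 3′ UTR (mm10 chr19:47260174-47266986), stood at 159, 214, 538 and 545 scaled CPM in Input and 2722, 2161, 9775 and 13812 in IgG IP. It rose by 4.08 log2 units (SE 0.33, adjusted p = 5.42e-06), with replicates 3 and 4 above replicates 1 and 2 in both groups. Mdm2, the ubiquitin ligase that targets p53, stood at 1161, 932, 951 and 514 scaled CPM in Input and 4283, 4031, 5169 and 4758 in IgG IP. Its 4 IgG IP values were close together, all of them above the Input values (log2 fold change 2.41, SE 0.31, adjusted p = 0.000122). Ccnd2, cyclin D2, rose by 2.37 (SE 0.29, adjusted p = 9.04e-05) and Slc35e3, a member of a nucleotide sugar transporter family, by 1.57 (SE 0.35, adjusted p = 0.00392).

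The other 4 features of that group were transcripts of fat cell lipid metabolism. Lpl, lipoprotein lipase, stood at 7869.7, 10437, 6171 and 8362 scaled CPM in Input and 14199, 17346, 7317 and 7909 in IgG IP. The groups overlapped, the IgG IP values of replicates 3 and 4 lay within the Input range, and the difference did not pass the test (log2 fold change 0.44, SE 0.29, adjusted p = 0.241). Lpl was past the threshold as higher in replicates 1 and 2 alone (0.71, adjusted p = 0.0284), without the Lars2 feature (0.79, adjusted p = 0.0212), at a mean count of at least 50 (1.60, adjusted p = 0.000475) and after thinning to equal depth (1.26, adjusted p = 0.00247). Scd1, the stearoyl-CoA desaturase that makes monounsaturated fatty acids, stood at 2528, 2348, 817 and 916 scaled CPM in Input and 13810.5, 12830.3, 6473 and 7245 in IgG IP. It was higher in all 4 IgG IP libraries (log2 fold change 2.72, SE 0.29, adjusted p = 3.13e-05). Its relative Scd2 rose by 1.42 (SE 0.29, adjusted p = 0.00248) and Acsl1, which activates long-chain fatty acids, by 1.48 (SE 0.27, adjusted p = 0.00106). In all, 9 of the 10 leading features were past the threshold as higher than in Input, but they had been chosen for a high IgG IP share, which favours that direction, so nothing is read from this count.

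Outside Lars2, the IgG IP libraries were spread over more features than the Input libraries. At an equal depth of 61916 counts, the expected number of features with a count was 8884 ± 731 in IgG IP and 7215 ± 802 in Input (SD, n = 4 each). The 100 leading features held 24.7 ± 1.70% of the IgG IP counts and 31.2 ± 3.21% of the Input counts. In all 4 pairs the IgG IP library had more features and the lower share in its leading features (exact sign-flip p = 0.13 for each, the smallest possible).

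**Figure D1:**
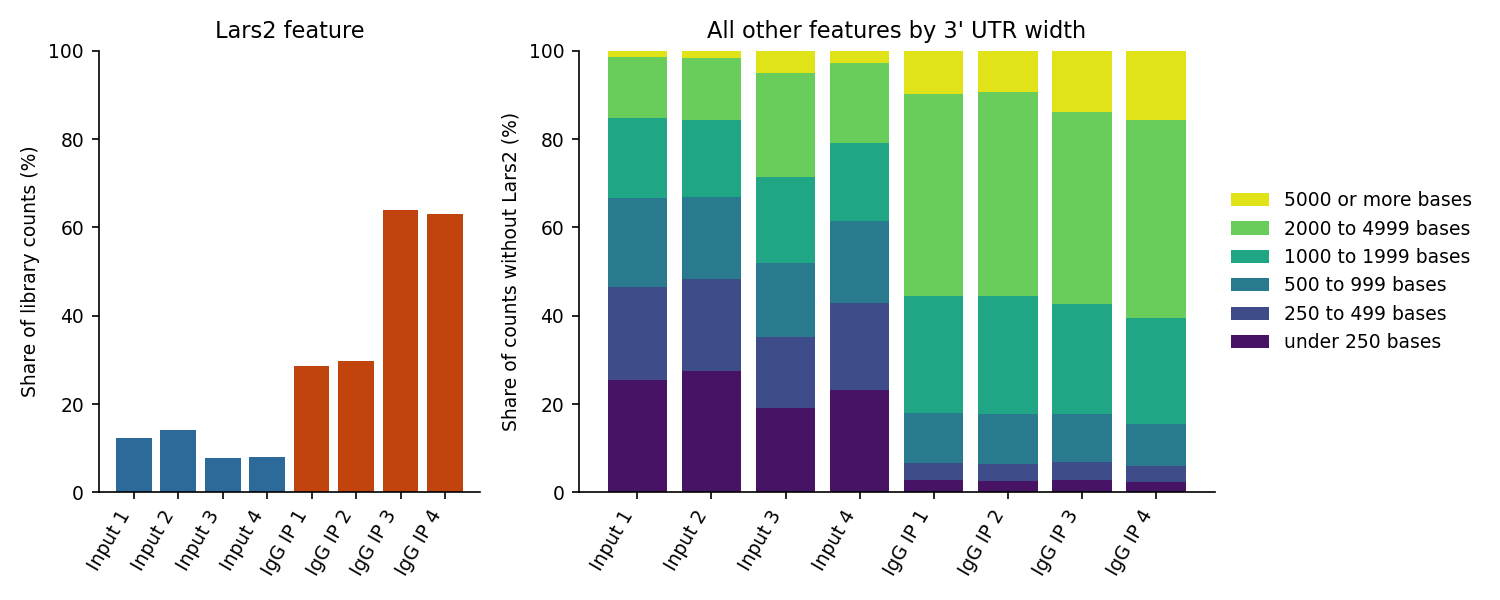
Left: share of all counts (%) in the Lars2 feature in each Input (blue) and IgG IP (orange) library. Right: share of the remaining counts (%) in features of 6 width classes, one bar per library. Lars2 takes 28.6% to 63.9% of the IgG IP libraries, and features of 2000 to below 5000 bases take 43.4% to 46.2% of their remaining counts, against 13.7% to 23.6% in Input.

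Across all genes, 6434 features passed the filter on low counts, and 14152 did not, of which 9305 still had a count in an IgG IP library. Of the features tested, 1107 were higher in IgG IP (17.2%) and 1729 were lower (26.9%), in all 44.1%. Counts of called members in each gene list below are to be set against these shares. Of the calls, 2804 had the same sign in all 4 replicates, which calling over those replicates favours. An unadjusted p under 0.05 was found for 3364 features. The number of higher features depended on the replicates used, with 616 without replicate 1, 730 without replicate 2 and 610 without replicate 4. The scaled CPM of the 2 groups did not overlap, with IgG IP above, for 1172 features (18.2%) and, with IgG IP below, for 1882 (29.3%). The median log2 fold change of all tested features was -0.05, and it moved to -0.23 with scaling by library totals, to 0.10 with DESeq2's size factors and without the Lars2 feature to 0.32 over the same features. Directions are therefore relative to the bulk of the features. Where a feature had 3 or fewer counts over a group, as 280 of the lower and 15 of the higher calls did, its fold is given as a bound or as a ratio of counts with its interval.

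The features that were higher and lower in IgG IP differed in the width of their 3′ UTR. Those that were higher had a median width of 2839 bases, the lower ones 418 bases and all tested features 1443.5 bases. Of the 1107 higher features, 803 (72.5%) were 2000 bases or wider, and of the 1729 lower features, 1345 (77.8%) were under 1000 bases. The mean width over all counts other than Lars2 was 2776 ± 215 bases in IgG IP (2592 to 3042) and 1232 ± 265 bases in Input (1030 to 1593), without overlap between the groups.

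By width class, 518 of 611 tested features under 250 bases were lower and 2 were higher, with a median log2 fold change of -4.07. From 250 to below 500 bases, 435 of 670 were lower and 4 higher (median -2.89), and from 500 to below 1000 bases 392 of 1124 were lower and 29 higher (median -1.25). From 1000 to below 2000 bases the 2 directions were balanced, with 256 of 1684 lower and 269 higher (median 0.36). From 2000 to below 5000 bases, 646 of 2012 were higher and 122 lower (median 1.37). Of the 333 features of 5000 bases or more, 157 were higher and 6 lower (median 1.66).

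The same order was seen in the shares of counts without Lars2. Features under 250 bases held 25.4%, 27.4%, 19.2% and 23.2% of the Input counts and 2.72%, 2.48%, 2.91% and 2.45% of the IgG IP counts. Features of 2000 to below 5000 bases held 13.7%, 14.2%, 23.6% and 18.0% of Input and 45.8%, 46.2%, 43.4% and 44.8% of IgG IP. The IgG IP libraries agreed within 3 percentage points of each other in both classes, and no library of one group reached the range of the other. In all 6 classes the groups did not overlap (exact sign-flip p = 0.13 each, the smallest possible). Input replicate 3 had the highest share of wide features among the Input libraries.

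Levels were also compared per length. The median level of tested features under 250 bases was 778 ± 163 CPM per kb in Input and 47.1 ± 11.9 in IgG IP (SD, n = 4 each). For 1000 to below 2000 bases it was 24.2 ± 0.96 against 26.4 ± 3.43 CPM per kb, and for 5000 bases or more 6.14 ± 4.48 against 14.9 ± 4.09. From the narrowest to the widest class the median level per kb thus dropped more in Input than in IgG IP. Per feature and not per length, the IgG IP medians went from 7.16 ± 1.54 scaled CPM under 250 bases to 94.4 ± 25.5 at 5000 bases or more. In Input they went from 94.5 ± 20.9 down to 28.2 ± 11.2 at 2000 to below 5000 bases and 39.7 ± 28.8 above. The IgG IP median under 250 bases lies below the limit of 3 counts there (8.85 to 22.4 scaled CPM). That value and the 47.1 CPM per kb thus rest on very few reads per library.

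Over the 6434 tested features, Spearman's rho between the log2 fold change and width was 0.66. In replicates 1 and 2 alone it was 0.72 over 6021 of these features, and in replicates 3 and 4 alone 0.59 over 6065. The level itself was higher in wider features in the IgG IP libraries, with rho of 0.48, 0.47, 0.55 and 0.56, and lower in the Input libraries, with rho of -0.47, -0.44, -0.05 and -0.26. These are descriptions across features that share libraries and depth. A loess curve of the log2 fold change on log2 width passed through -4.48 at 100 bases, -1.96 at 500, -0.41 at 1000, 0.84 at 2000 and 1.62 at 5000 bases. Below, the distance of a feature from this curve is called its width-adjusted log2 fold change. With the expected effect of width entered into the edgeR fit as an offset, 607 features were higher (9.43%) and 925 lower (14.4%), of which 482 and 733 had been called in the same direction without it.

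**Figure D2:**
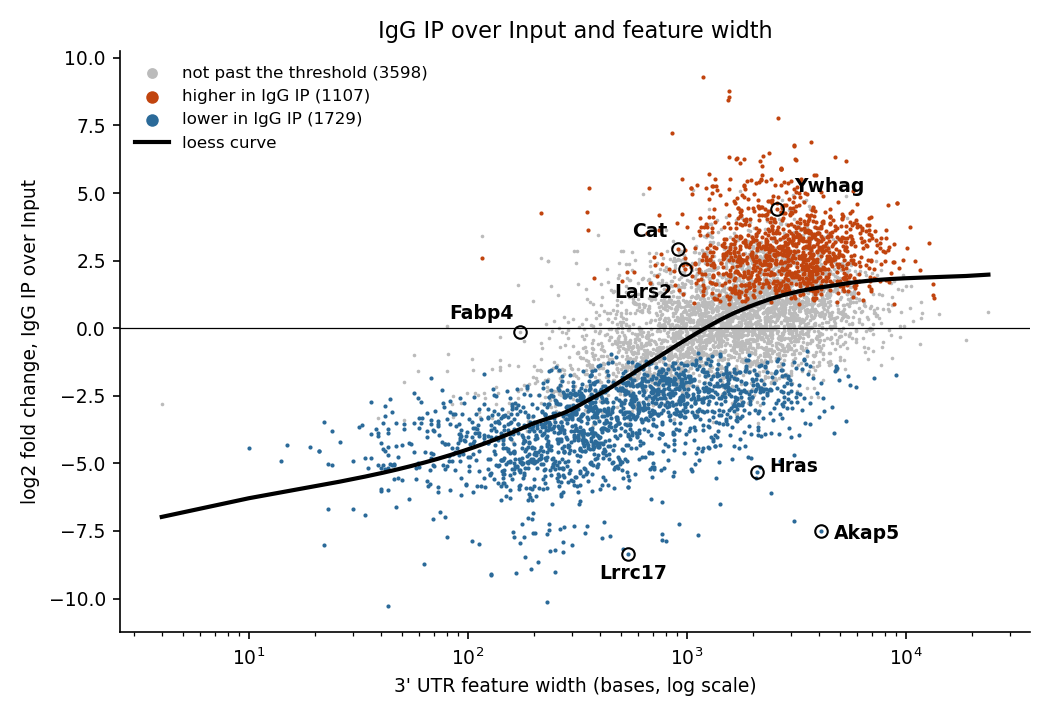
Log2 fold change of IgG IP over Input (y axis) against the width of the 3′ UTR feature in bases (x axis, log scale) for the 6434 tested features, with features higher in IgG IP in orange, lower in blue and the rest in grey; the black line is the loess curve. The cloud climbs from below -4 at 100 bases to above 1 at 5000 bases, and Fabp4, Cat and Lars2 lie above the curve while Lrrc17, Hras and Akap5 lie far below it.

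Components of the ribosome were among the transcripts most reduced in IgG IP. Of 84 cytosolic ribosomal protein features, 71 were tested, and 63 of these were lower and 0 higher, where 26.9% of all tested features were lower. The median log2 fold change of the tested members was -4.32, and the list took 0.31 ± 0.12% of the IgG IP counts without Lars2 against 4.26 ± 1.83% of Input. Rpl41, a very small protein of the large subunit, stood at 14416, 13683, 6267 and 9452 scaled CPM in Input and 237, 67.1, 138 and 209 in IgG IP. All IgG IP libraries lay far below all Input libraries (log2 fold change -6.05, SE 0.44, adjusted p = 3.45e-06). Rps15, a protein of the small subunit, had a log2 fold change of -6.90 (SE 0.53). The ribosomal features are narrow, with a median of 91 bases over the tested members, and the width-adjusted median was 0.01. Ribosomal protein genes also have many near-identical pseudogene copies, so their counts are uncertain.

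Mitochondrial ribosomal proteins were lower as well, and their median lay below the width curve. Of 77 such features 60 were tested, of which 41 were lower and 1 higher (median -3.35, width-adjusted median -1.16). Mrpl45 has a 3′ UTR of 1352 bases, close to the median of all tested features, and stood at 528, 695, 1004 and 1361 scaled CPM in Input and 24.3, 37.3, 64.5 and 50.1 in IgG IP. The groups were well apart (log2 fold change -4.35, SE 0.36, adjusted p = 5.42e-06), and the width-adjusted value was -4.56. Mrps18a (-5.82, SE 0.40) and Mrps34 (-5.22, SE 0.47), both of the small subunit, also fell, but the RefSeq table places part of Rsph9 and of Nme3 in their features, and without knowledge of the strand the reads cannot be assigned with certainty. Mrps2 was the 1 member past the threshold as higher (log2 fold change 2.51, SE 0.91, adjusted p = 0.0417), from 0 to 38 counts in Input and 7 to 29 in IgG IP. That call was lost in 8 alternatives, among them without replicate 1, 2 or 4.

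The respiratory chain followed the same course. Of 84 nuclear-encoded subunits 73 were tested, 65 were lower and 0 higher, and the median was -3.97 (width-adjusted -0.84). Together they held 0.54 ± 0.04% of the IgG IP counts without Lars2 and 6.18 ± 0.59% of Input, a fraction 11.4 times higher. Atp5d, the delta subunit of ATP synthase, stood at 5146, 7365, 6265 and 9407 scaled CPM in Input and 48.6, 82, 152 and 156 in IgG IP. All Input libraries were far above all IgG IP libraries (log2 fold change -6.06, SE 0.38, adjusted p = 3e-06). Atp5e, the epsilon subunit, fell by 5.82 (SE 0.38) and Uqcr10, a small subunit of complex III, fell by 4.95 (SE 0.35), although a RefSeq long noncoding RNA lies in the Uqcr10 feature. Ndufs6, an accessory subunit of complex I, had 1005, 1713, 1162 and 2477 counts in Input and 1, 0, 1 and 1 in IgG IP, and the ratio of Input to IgG IP was 367-fold (exact 95% interval 125 to 1779).

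Proteasome subunits, which form the protease that degrades ubiquitin-tagged proteins, gave 27 lower and 0 higher among 34 tested of 48 (median -3.21, width-adjusted -0.22). Psmd7, a lid subunit, stood at 919, 917, 511 and 628 scaled CPM in Input and 72.9, 52.2, 64.5 and 38.3 in IgG IP. Its IgG IP values were all well below the Input values (log2 fold change -3.68, SE 0.36, adjusted p = 1.87e-05). Psmd2, a base subunit, fell by 3.88 (SE 0.47, adjusted p = 7.97e-05). Psmb2, a core subunit, had 205, 209, 40 and 109 counts in Input and 0, 0, 0 and 0 in IgG IP, which makes it at least 32.5-fold lower against a limit of 3 counts over the group.

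Among enzymes of glycolysis and the citric acid cycle, lower members outnumbered higher ones. Of 34 features 33 were tested, of which 17 were lower and 4 higher, with a median of -2.48. Aldoa, the aldolase of glycolysis with a 185-base 3′ UTR, stood at 5639, 7961, 10766 and 17664 scaled CPM in Input and 72.9, 142, 258 and 245 in IgG IP. It fell in IgG IP (log2 fold change -5.89, SE 0.35, adjusted p = 3e-06), and the values of replicates 3 and 4 exceeded those of replicates 1 and 2 in both groups. Tpi1, triosephosphate isomerase, had the lowest width-adjusted value among the members named here (log2 fold change -6.33, SE 0.40, adjusted p = 3e-06; width-adjusted -5.08), but Spsb2 overlaps its feature on the opposite strand. Ldha, lactate dehydrogenase A, also fell (log2 fold change -5.18, SE 0.33, adjusted p = 3e-06; width-adjusted -3.16), with a RefSeq long noncoding RNA inside its feature. Gpi1, glucose-6-phosphate isomerase, fell by 5.25 (SE 0.37). In the other direction, Hk2, hexokinase 2, has 2285 bases and stood at 22.6, 46.4, 40.6 and 41.8 scaled CPM in Input and 182, 209, 526 and 389 in IgG IP. It rose (log2 fold change 3.03, SE 0.40, adjusted p = 0.000133), as did Cs, citrate synthase (1.63, SE 0.31, adjusted p = 0.00163).

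Among genes of antioxidant and stress defence, 13 of 27 tested features were lower and 4 higher (median -1.43, width-adjusted 0.94). With the width offset, 7 of the 27 were higher and 7 lower. The list held 0.83 ± 0.18% of IgG IP and 4.64 ± 0.51% of Input counts without Lars2. Fth1, the ferritin heavy chain that stores iron, stood at 22840.0, 28525, 27864 and 39377 scaled CPM in Input and 796, 469, 184 and 336 in IgG IP. The Input values were more than 25 times above every IgG IP value (log2 fold change -6.22, SE 0.49, adjusted p = 4.49e-06). Gpx4, which reduces lipid peroxides, fell by 4.54 (SE 0.45, adjusted p = 1.93e-05) and Gpx1 fell by 4.59 (SE 0.42, adjusted p = 1.06e-05). Cat, catalase, went the other way, at 218, 134, 149.7 and 79.6 scaled CPM in Input and 589, 887, 1360.2 and 1569 in IgG IP. It rose in spite of a width under 1000 bases (log2 fold change 2.92, SE 0.45, adjusted p = 0.000346; width-adjusted 3.54).

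Among factors of translation beyond the ribosome, 17 did not pass the test and lower members outnumbered higher ones. Of 40 tested initiation and elongation factors, 19 were lower and 4 higher (median -1.54, width-adjusted -1.02). Eif3f, a subunit of the eIF3 complex, has 1413 bases and stood at 399.5, 367, 325 and 334 scaled CPM in Input and 24.3, 29.8, 4.61 and 17.7 in IgG IP. It fell far below its width class (log2 fold change -4.32, SE 0.47, adjusted p = 3.83e-05; width-adjusted -4.62). Eef1a1, the main elongation factor that delivers aminoacyl-tRNA, fell by 3.03 (SE 0.29), close to the curve at 0.05. Eif4b and Eif4h, cofactors of the eIF4A helicase, rose by 1.62 (SE 0.31) and 1.46 (SE 0.29).

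Of 26 tested aminoacyl-tRNA synthetases, which load tRNAs with amino acids, 13 were lower and the Lars2 feature alone was higher (median -3.03, width-adjusted -0.83). Sars, the cytosolic seryl-tRNA synthetase, has a 1965-base 3′ UTR (mm10 chr3:108424865-108426829) and stood at 1003, 1280.0, 725 and 679 scaled CPM in Input and 18.2, 37.3, 36.9 and 32.4 in IgG IP. Its IgG IP values were all under 40 scaled CPM (log2 fold change -4.80, SE 0.39, adjusted p = 5.32e-06), and the width-adjusted value was -5.62. Hars, the histidyl-tRNA synthetase, had 448, 629, 409 and 950 counts in Input and 0, 0, 0 and 3 in IgG IP, a ratio of 141-fold (exact 95% interval 48 to 682). Kars, the lysyl-tRNA synthetase, fell by 5.12 (SE 0.49, adjusted p = 1.56e-05).

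Among cytoskeletal and lysosomal genes, lower features outnumbered higher ones. Of 35 tested actin, tubulin and intermediate filament genes, 18 were lower and 4 higher (median -1.99, width-adjusted 0.09). Vim, vimentin, stood at 1393, 879, 873 and 1643 scaled CPM in Input and 146, 82, 50.7 and 91.4 in IgG IP. All IgG IP values were below 150 scaled CPM and all Input values above 850 (log2 fold change -3.74, SE 0.34, adjusted p = 1.06e-05). Arpc2, a subunit of the actin-branching Arp2/3 complex, and Myl6, a myosin light chain, had log2 fold changes of -4.81 (SE 0.42) and -4.14 (SE 0.37), whereas Myh9, a nonmuscle myosin heavy chain, rose by 1.96 (SE 0.40, adjusted p = 0.0023). Of 31 tested V-ATPase, cathepsin and lysosomal membrane genes, 15 were lower and 3 higher (median -1.60). Atp6v0b, a subunit of the proton pump, fell by 4.36 (SE 0.42), and Lamp2, a lysosomal membrane protein, rose by 4.20 (SE 0.63, adjusted p = 0.00031).

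**Figure D3:**
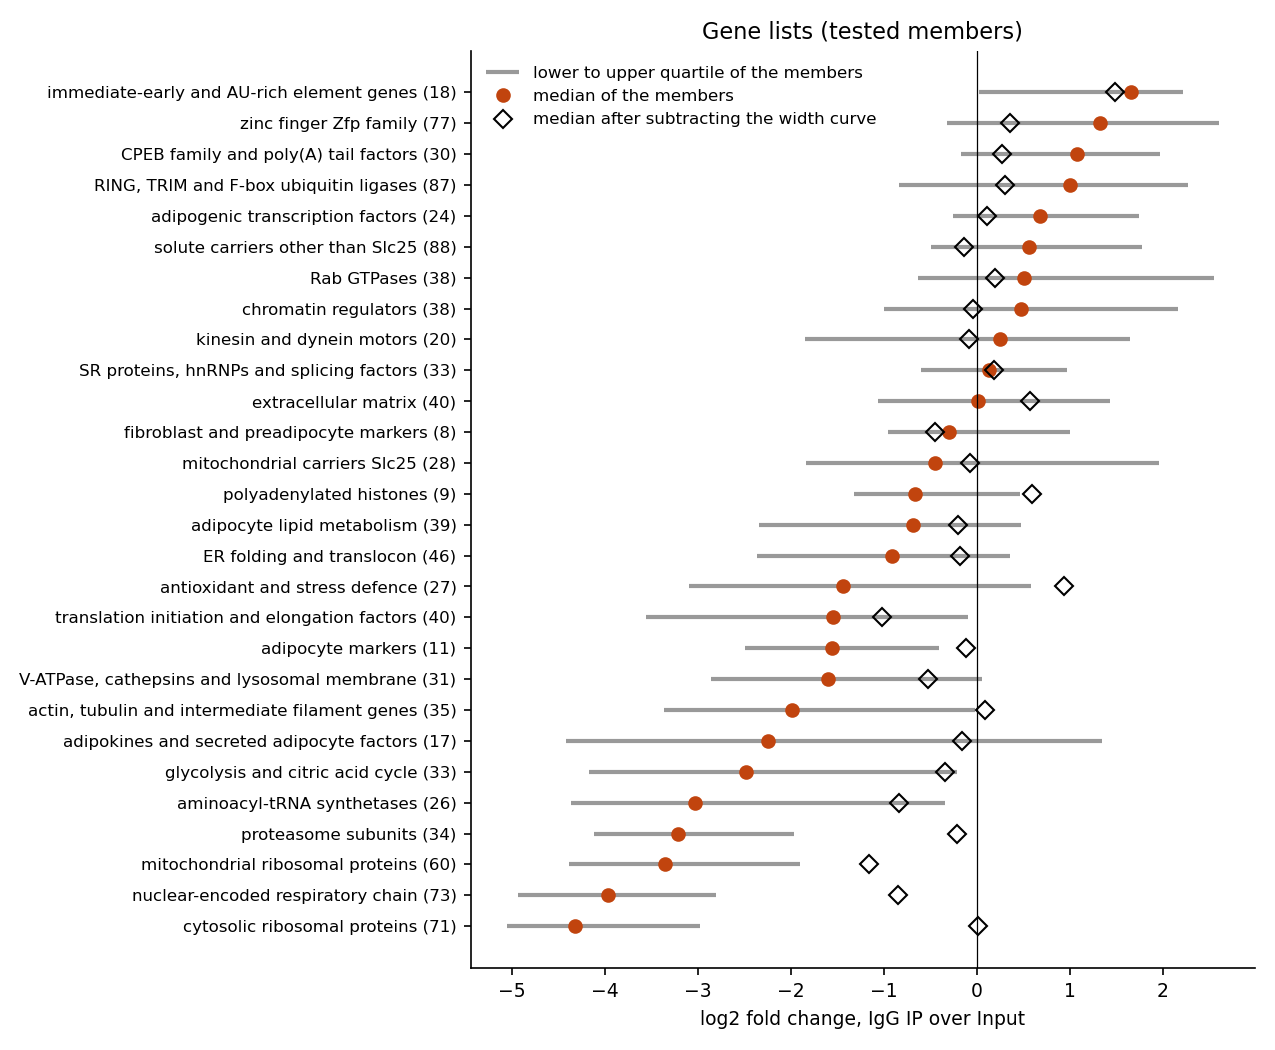
Median log2 fold change of IgG IP over Input (orange) with the quartiles of the members (grey bar) and the median after subtraction of the width curve (open diamond) for the 28 gene lists with 5 or more tested members, whose number is in brackets. The lists run from cytosolic ribosomal proteins at -4.32 to immediate-early and AU-rich element genes at 1.66, and after the subtraction the mitochondrial ribosomal list at -1.16 is the lowest and the immediate-early list at 1.49 the highest.

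Among Zfp genes, ubiquitin ligases, immediate-early genes and poly(A) tail factors, higher members outnumbered lower ones. The same held for the Rab GTPases, solute carriers, chromatin regulators and adipogenic transcription factors described below. Of 77 tested Zfp zinc finger genes (of 316 in the table), many of them transcriptional repressors, 15 were higher and 5 lower, or 19.5% and 6.49%, where 17.2% of all tested features were higher and 26.9% lower (median 1.33, width-adjusted 0.36). With the width offset, 7 of the 77 were higher and 3 lower, where 9.43% of all tested features were higher and 14.4% lower. The list's share of counts without Lars2 was 1.03 ± 0.10% in IgG IP and 0.47 ± 0.23% in Input, without overlap. Zfp106 stood at 39.4, 55.5, 47.1 and 62 scaled CPM in Input and 304, 231, 359.6 and 404 in IgG IP. The lowest IgG IP value was more than 3 times the highest Input value (log2 fold change 2.66, SE 0.37, adjusted p = 0.000171). Zfp652 and Zfp609 rose by 4.57 (SE 0.68) and 4.84 (SE 0.79), each with under 5 counts in Input replicates 1 and 2 and more in replicates 3 and 4. Zfp703, a corepressor, fell by 1.78 (SE 0.35, adjusted p = 0.00178).

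Of 87 tested RING, TRIM and F-box ubiquitin ligase genes, 22 were higher and 14 lower (25.3% and 16.1%, median 1.01, width-adjusted 0.30). The list held 1.42 ± 0.08% of IgG IP and 0.58 ± 0.15% of Input counts without Lars2. Nedd4, a HECT-type ligase also on the list, stood at 111, 144, 137 and 241 scaled CPM in Input and 1088, 797, 1346 and 1658 in IgG IP. The groups were apart by a factor of more than 3 (log2 fold change 2.96, SE 0.31, adjusted p = 2.7e-05). Trim44 rose by 3.38 (SE 0.38) and Fbxl20, an F-box protein with a 7035-base 3′ UTR, by 3.33 (SE 0.42). Fbxw5, with 506 bases, fell by 2.20 (SE 0.53, adjusted p = 0.00602).

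Immediate-early genes and genes with AU-rich elements, whose short-lived transcripts respond to signals, had 5 of 18 tested members higher and 1 lower (27.8% and 5.56%). Their median of 1.66 exceeded the curve for their width by 1.49. Zfp36l2, which binds AU-rich elements and destabilises transcripts, stood at 19, 13.7, 43.8 and 1.96 scaled CPM in Input and 286, 164, 258 and 236 in IgG IP. It was higher in all 4 pairs (log2 fold change 3.99, SE 0.64, adjusted p = 0.000478). Its relative Zfp36l1 rose by 1.97 (SE 0.42) and Fosl2, a subunit of the AP-1 factor, by 2.74 (SE 0.47). Jund, another AP-1 subunit with only 533 bases, rose by 2.09 (SE 0.63, adjusted p = 0.0196), a call lost without replicate 4 (1.79, adjusted p = 0.117). Nfkbia, the inhibitor of NF-kappa-B, fell by 1.67 (SE 0.49, adjusted p = 0.017), and that call was lost without replicate 2 (-1.73, adjusted p = 0.0732).

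Among the lists with 5 or more tested members, factors of the poly(A) tail had the largest share of higher ones. Of 30 tested, 12 were higher and 3 lower (median 1.07, width-adjusted 0.27). With the width offset 2 of the 30 were higher and 1 lower, against 5 higher and 1 lower of the 18 immediate-early genes, so the order of these lists did not hold. Cpeb4 itself, the target of the study's other antibody, had 10, 23, 78 and 65 counts in Input and 43, 43, 60 and 135 in IgG IP, or 7.29, 20.9, 83.4 and 42.4 scaled CPM in Input and 261, 320.4, 277 and 398 in IgG IP. It rose in the control precipitation (log2 fold change 3.43, SE 0.54, adjusted p = 0.000447), with a width-adjusted value of 1.91 at 4102 bases. Cnot6, a deadenylase, rose by 4.18 (SE 0.96), Btg1, a partner of the CCR4-NOT deadenylases, by 1.77 (SE 0.32), and Pum2, an RNA-binding repressor, by 1.60 (SE 0.40, adjusted p = 0.00791). Pum2 missed the threshold without replicate 1 (1.43, adjusted p = 0.0511) and without replicate 4 (1.55, adjusted p = 0.0509). Pabpc1, the main cytoplasmic poly(A)-binding protein, with 439 bases, stood at 1503, 2017, 1058 and 1240.0 scaled CPM in Input and 340.2, 358, 323 and 428 in IgG IP. It was lower in all IgG IP libraries (log2 fold change -1.96, SE 0.30, adjusted p = 0.000345), near its curve at 0.28. Cnot1, the scaffold of the CCR4-NOT complex, fell by 2.57 (SE 0.67, adjusted p = 0.00971), with part of RefSeq's Setd6 in its feature, and missed the threshold without replicate 1 (-2.50, adjusted p = 0.0571).

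Genes of membrane transport and traffic gave shares of higher members near the 17.2% of all tested features. Of 38 tested Rab GTPases, switches of vesicle traffic, 8 were higher and 3 lower (21.1% and 7.89%, median 0.51), and the list's share of 0.66 ± 0.01% in IgG IP exceeded 0.35 ± 0.04% in Input in every library. Rab43 stood at 10.9, 10.9, 9.62 and 10.4 scaled CPM in Input and 97.2, 104, 129 and 142 in IgG IP. The values of each group were close together and the groups far apart (log2 fold change 3.46, SE 0.56, adjusted p = 0.000519). Rab22a and Rab1a rose by 2.62 (SE 0.44) and 2.56 (SE 0.43), and Rab34, with 352 bases, fell by 3.49 (SE 0.53). Rab14 was just past the threshold as lower (log2 fold change -0.84, SE 0.29, adjusted p = 0.0352), a call lost under each other scaling and without any 1 replicate (adjusted p between 0.0756 and 0.124 without 1 replicate). Of 88 tested solute carriers other than the mitochondrial Slc25 family, 16 were higher and 12 lower (18.2% and 13.6%, median 0.56). The amino acid transporters Slc38a2 and Slc7a5 rose by 2.98 (SE 0.43) and 2.64 (SE 0.43), and Slc35b2, a carrier of the sulfate donor PAPS, fell by 4.53 (SE 0.46).

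Of 28 tested mitochondrial Slc25 carriers, 5 were higher and 11 lower (17.9% and 39.3%, median -0.45). Slc25a51, with 3318 bases, rose by 2.61 (SE 0.34, adjusted p = 0.000112) and Slc25a3, the mitochondrial phosphate carrier with 390 bases, fell by 3.94 (SE 0.50, adjusted p = 9.58e-05). Of 20 tested kinesin and dynein motor genes, 4 were higher and 6 lower (20% and 30%), near the 17.2% and 26.9% of all tested features. Their median of 0.25 became -0.02 under scaling by library totals. It was -0.79 in replicates 1 and 2 alone and -0.77 in replicates 3 and 4 alone, so its sign did not hold. Kif1b rose by 2.68 (SE 0.35) and Dync1li2, a dynein chain, by 1.54 (SE 0.35). Dctn3, a subunit of dynactin, fell by 4.37 (SE 0.63, adjusted p = 0.000247).

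Of 38 tested chromatin regulators, 8 were higher and 5 lower (21.1% and 13.2%, median 0.48, width-adjusted -0.04), where 17.2% of all tested features were higher and 26.9% lower. Tet3, which oxidises methylcytosine, rose by 3.31 (SE 0.48) and Setd5 by 2.73 (SE 0.56). Bptf, a subunit of the NURF remodelling complex, has 2722 bases and stood at 54, 85.6, 174 and 197 scaled CPM in Input and 6.08, 7.45, 50.7 and 17.7 in IgG IP. It fell in spite of that width (log2 fold change -2.82, SE 0.59, adjusted p = 0.00264; width-adjusted -4.03), as did Arid2 (-1.83, SE 0.40; width-adjusted -3.10) and the narrow Chd8 (-4.14, SE 0.62). Of 33 tested SR proteins, hnRNPs and splicing factors, 2 were higher and 5 lower (6.06% and 15.2%, median 0.13), both below the shares over all features. Hnrnpul1 rose by 3.64 (SE 1.04, adjusted p = 0.0148; lost without replicate 1 or replicate 2), Sf3b2 fell by 2.38 (SE 0.45) and Hnrnpa2b1, with 2821 bases, fell by 1.71 (SE 0.37; width-adjusted -2.96).

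Transcripts of replication-dependent histones end in a stem-loop without a poly(A) tail, and Input alone was poly(A)-selected. What that selection did to histone features was not tested. Of 56 replication-dependent histone features only 4 passed the filter, and of these 1 was higher and 2 lower. All 56 together held 0.061 ± 0.015% of the IgG IP counts without Lars2 and 0.062 ± 0.026% of Input (SD, n = 4 each; exact two-sided sign-flip test p = 0.875). Hist1h1c, a linker histone, stood at 68.5, 86.5, 44.9 and 41.1 scaled CPM in Input and 170.1, 134, 217 and 186 in IgG IP. It was higher in every IgG IP library (log2 fold change 1.61, SE 0.44, adjusted p = 0.0124), a call lost without replicate 4 (1.44, adjusted p = 0.0764). Hist2h2aa1 and Hist2h2aa2, which encode histone H2A from narrow features, had log2 fold changes of -3.62 (SE 0.73) and -3.32 (SE 0.72), and reads of such near-identical copies are uncertain. Of 9 tested polyadenylated histone genes, 2 were lower and 0 higher (median -0.66, width-adjusted 0.59). The 22.2% that were lower lay near the 26.9% of all tested features. H2afj, with 1345 bases, fell by 3.94 (SE 0.62, adjusted p = 0.000415).

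Genes of the secretory pathway and the matrix went in both directions. Of 40 tested extracellular matrix genes, 9 were higher and 9 lower (22.5% each), where 17.2% and 26.9% of all tested features were. Their median of 0.01 became -0.18 under scaling by library totals. The list nevertheless took 1.28 ± 0.32% of the IgG IP counts without Lars2 and 0.57 ± 0.09% of Input, without overlap. Bgn, biglycan, a proteoglycan of the matrix, stood at 592, 527, 221 and 394 scaled CPM in Input and 2090.1, 1855, 1545 and 2015 in IgG IP. All IgG IP values were well above all Input values (log2 fold change 2.20, SE 0.30, adjusted p = 0.000168). Nid1, nidogen of the basement membrane, rose by 4.47 (SE 0.38, adjusted p = 6.79e-06) and Col6a1, a collagen VI chain, by 2.36 (SE 0.36), both more than 3 above their curve. Lama4, a laminin chain with 155 bases, had 406, 317, 90 and 235 counts in Input and 1, 0, 0 and 1 in IgG IP, a ratio of Input to IgG IP of 90.7-fold (exact 95% interval 25 to 750.0), and Loxl1, a collagen cross-linking enzyme, fell by 2.62 (SE 0.50). Of 46 tested genes of ER folding and the translocon, 19 were lower and 4 higher (median -0.91). Ssr3, of the translocon-associated complex, rose by 4.21 (SE 0.60) and the oxidase Ero1l by 1.41 (SE 0.30). Rpn2, of the oligosaccharyltransferase, and Spcs1, of the signal peptidase, had log2 fold changes of -3.03 (SE 0.42) and -4.05 (SE 0.48).

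**Figure D4:**
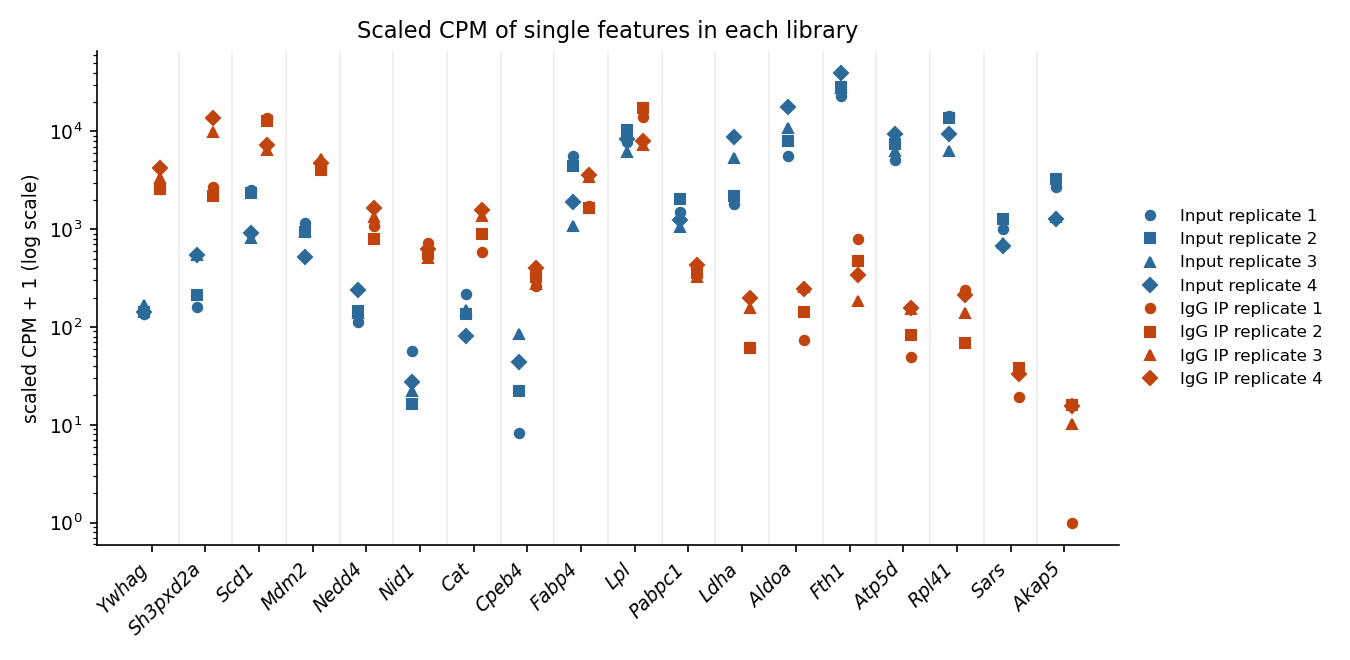
Scaled CPM + 1 (log scale) of 18 single features in the 4 Input (blue) and 4 IgG IP (orange) libraries, with one marker shape per replicate number. From Ywhag to Cpeb4 the IgG IP points lie above Input, Fabp4 and Lpl overlap, and from Pabpc1 to Akap5 all IgG IP points lie below Input.

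Fat cell genes moved in both directions as well. Of 39 tested genes of lipid metabolism, 16 were lower and 6 higher (41.0% and 15.4%, median -0.68). The list nevertheless held 7.23 ± 1.86% of IgG IP counts without Lars2 and 4.02 ± 0.50% of Input, without overlap between the groups. Scd1 and Scd2, described above, were among the higher ones. Scd1 alone gave a mean of 1.17% of all IgG IP counts and 0.16% of all Input counts, Lars2 included. The share of the list is therefore not a trait of its members at large. Gpam, which starts triglyceride synthesis, rose by 3.74 (SE 0.56, adjusted p = 0.00031). Dgat1, which completes it, has 221 bases and stood at 954, 1656, 1259 and 1485 scaled CPM in Input and 12.2, 14.9, 27.7 and 56 in IgG IP. Its IgG IP values were all under 60 scaled CPM (log2 fold change -5.57, SE 0.42, adjusted p = 3.8e-06). Plin2, a coat protein of lipid droplets, fell by 3.63 (SE 0.36).

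Of 17 tested adipokines and secreted factors, 9 were lower and 4 higher (52.9% and 23.5%, median -2.24, width-adjusted -0.16). Cfd, the adipocyte protease adipsin, stood at 5183, 5805, 988 and 1115 scaled CPM in Input and 152, 156, 50.7 and 17.7 in IgG IP. Replicates 1 and 2 exceeded replicates 3 and 4 in both groups, and IgG IP lay far below Input throughout (log2 fold change -5.11, SE 0.37, adjusted p = 3.45e-06). C3, complement component 3, with 43 bases, stood at 58.5 ± 56.2 scaled CPM in IgG IP against 3967 ± 3469 in Input (SD, n = 4 each). Agt, angiotensinogen, fell by 4.41 (SE 0.40). Vegfa and Igfbp4 rose by 1.36 (SE 0.33) and 1.35 (SE 0.30); Vegfa missed the threshold under scaling by library totals (1.23, adjusted p = 0.0519). Of 24 tested adipogenic transcription factors, 5 were higher and 4 lower (20.8% and 16.7%, median 0.68). Over all tested features, 17.2% were higher and 26.9% lower. Nr3c1, the glucocorticoid receptor, rose by 2.17 (SE 0.39), Nfia by 1.76 (SE 0.34) and the coactivator Ppargc1a by 2.05 (SE 0.45). Nr1h3, the liver X receptor alpha, fell by 5.51 (SE 0.40) and the Krüppel-like factor Klf9 fell by 2.09 (SE 0.32; width-adjusted -2.94).

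All 11 adipocyte markers were tested, and 6 were lower and 0 higher (median -1.56). Their summed level was 22709 to 44641 CPM of the counts without Lars2 in IgG IP and 16262 to 26724 in Input, and 0 of them were without counts in a group. Lpl, which was not called, held 8933 of the 13954 IgG IP counts of these markers and 40842 of the 104325 Input counts, and without it the sum was 6838 to 11104 in IgG IP and 8968 to 17077 in Input, which overlap. Adipoq, adiponectin, stood at 1202, 1055, 924 and 1298 scaled CPM in Input and 377, 268, 175 and 171 in IgG IP (log2 fold change -2.24, SE 0.32, adjusted p = 0.000233), lower in all IgG IP libraries and on the curve for its width at 0.03. Plin1, which coats lipid droplets, fell by 2.21 (SE 0.35) and Retn, resistin, fell by 5.12 (SE 0.62). Fabp4, the fatty acid-binding protein of adipocytes, has only 173 bases and stood at 5602, 4426, 1078 and 1888 scaled CPM in Input and 1713, 1654, 3412 and 3593 in IgG IP. Input was above IgG IP in replicates 1 and 2 and below it in replicates 3 and 4. Over all 4 the difference did not pass the test (log2 fold change -0.14, SE 0.55, adjusted p = 0.86), at a width-adjusted value of 3.60. Fabp4 was past the threshold as lower in replicates 1 and 2 alone (-1.66, adjusted p = 0.000307). It was past it as higher at a mean count of at least 50 (1.03, adjusted p = 0.0395) and with the width offset (3.21, adjusted p = 0.000437).

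Markers of other cell types are given here as the sum over each list in CPM of the counts without Lars2. Of 12 fibroblast and preadipocyte markers 8 were tested, 2 were lower and 0 higher. They summed to 561 to 2023 in IgG IP and 1301 to 2731 in Input. Fap was at 0 counts in all 8 libraries and S100a4 at 0 in IgG IP. Vim held 77 of the 432 IgG IP counts and 6210 of the 9286 Input counts of these markers. Without Vim the sum was 426 to 1734 in IgG IP and 375 to 1196 in Input, which overlap. Brown adipocyte markers summed to 277 to 436 in IgG IP and 119 to 452 in Input, with 1 of 3 tested higher and 1 lower. Cidea was at 0 in IgG IP and Ucp1 at 0 in Input. Ppargc1a held 149 of the 178 IgG IP counts and 193 of the 972 Input counts of these markers. Without Ppargc1a the sum was 43.5 to 113 in IgG IP and 97.2 to 378 in Input. Macrophage markers, 3 tested and 0 called, summed to 120 to 278 in IgG IP and 70.0 to 488 in Input, with Adgre1, C1qa, C1qb and Ptprc at 0 in Input and C1qa, Cd14 and Itgam at 0 in IgG IP. Endothelial markers, 1 tested and 0 called, summed to 30.5 to 82.5 in IgG IP and 0 to 87.2 in Input. Muscle or neuron markers, 1 tested and lower, summed to 108 to 210.0 in IgG IP and 290.4 to 357 in Input. Des held 67 of the 85 IgG IP counts and 1170 of the 1438 Input counts of these markers. Without Des the sum was 12.0 to 162 in IgG IP and 12.0 to 164 in Input. B cell markers had 9 counts over the IgG IP libraries and 86 over Input, and erythroid markers 13 and 179, with 0 tested in either list. What these cells or their RNA contributed to the results was not tested.

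A further 628 features belong to gene families of other tissues, such as olfactory and vomeronasal receptors, keratins and crystallins, known mainly from those tissues. They held 24, 25, 88 and 86 counts in the IgG IP libraries, over 21, 21, 68 and 57 features, with at most 6 counts in any feature of any library. In Input they held 198, 130, 1030 and 731 counts, over 28, 14, 57 and 50 features. Their share of counts without Lars2 was 0.04 ± 0.02% in IgG IP and 0.05 ± 0.05% in Input, so the groups overlapped. Only Cryab, the small heat shock protein alpha-B crystallin, passed the filter, and it was lower, with a log2 fold change of -3.16.

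Single features with the largest changes were chosen among the called, symbol-bearing features without overlap and with at least the median level. By the fitted log2 fold change, which is no bound for features at 0 in a group, the 12 largest increases were Adamts12, Stk4, Rps6ka3, Ids, Jmy, Kank2, Bahcc1, Eea1, Alg10b, Eif4ebp2, Lox and Ndst1, with widths from 1190 to 5323 bases. Adamts12, a secreted metalloprotease, had 0, 0, 0 and 0 counts in Input and 11, 15, 20 and 53 in IgG IP, and was at least 191-fold higher against a limit of 3 counts over the Input group (adjusted p = 0.000204). Stk4, a kinase of the Hippo pathway, had 7, 0, 0 and 0 counts in Input and 24, 15, 21 and 30 in IgG IP. The kinase gene Rps6ka3, Ids, a lysosomal sulfatase, and Jmy, an actin nucleator, had the same pattern, with 24, 18 and 24 counts in Input replicate 1 and 0 in the other three. Eif4ebp2, which holds back the cap-binding factor eIF4E, stood at 0, 19.1, 11.8 and 10.4 scaled CPM in Input and 139.7, 216, 410.4 and 619 in IgG IP. It rose, with IgG IP far above Input in every pair (log2 fold change 5.27, SE 0.66, adjusted p = 9.19e-05). Lox, lysyl oxidase, rose by 5.03 (SE 0.86), and its IgG IP values of 352, 52.2, 55.3 and 41.3 scaled CPM included 1 library far above the rest.

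By the same fitted values, the 12 largest decreases were Rpl23a-ps3, Dysf, Psmb2, Atpif1, Gm10094, Tmem160, Ndufs6, Lrrc17, Sra1, Akap5, Grhpr and Rpl6. The first 6 had 0 counts in all IgG IP libraries and were at least 66.4-fold (Rpl23a-ps3), 50.6-fold (Dysf), 32.5-fold (Psmb2), 32.8-fold (Atpif1), 25.2-fold (Gm10094) and 23.8-fold lower (Tmem160). Rpl23a-ps3 is named as a ribosomal protein pseudogene, so its reads are uncertain. Dysf, dysferlin, a membrane repair protein, had 130, 167, 266 and 314 counts in Input and 0, 0, 0 and 0 in IgG IP. Sra1 had 1 count in IgG IP, a ratio of 241-fold (exact 95% interval 43.2 to 9531), and Rpl6, of the large ribosomal subunit, had 2, a ratio of 187-fold (exact 95% interval 51.6 to 1543). Grhpr, a glyoxylate reductase, fell by 7.45 (SE 0.57).

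Among these 12 decreases, Akap5 was the widest feature. Akap5, an anchoring protein of protein kinase A, has 4099 bases (mm10 chr12:76330055-76334153) and had 3718, 3618, 1251 and 1967 counts in Input and 0, 2, 2 and 5 in IgG IP (log2 fold change -7.51, SE 0.53, adjusted p = 3.45e-06). Lrrc17, a secreted leucine-rich repeat protein, has 539 bases (mm10 chr5:21575362-21575900) and had 3832, 3702, 1279 and 1903 counts in Input and 2, 2, 0 and 1 in IgG IP (log2 fold change -8.34, SE 0.49, adjusted p = 3e-06), with part of RefSeq's Fbxl13 in its feature. The width-adjusted values were -9.02 and -6.55 for Akap5 and Lrrc17.

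The replicate pairs were compared because replicates 1 and 2 stood apart from replicates 3 and 4 in both groups. Of the 1107 higher features 1056 had a positive and of the 1729 lower features 1708 a negative log2 fold change in each pair. These features were called over the same 4 replicates, which favours a common sign, so nothing is read from these counts. Among the lists with the largest decreases, the medians were negative in both pairs, with cytosolic ribosomal proteins at -4.58 in replicates 1 and 2 and -3.75 in replicates 3 and 4, the respiratory chain at -4.91 and -3.29, and proteasome subunits at -3.87 and -2.89. Over all tested features the medians were -0.55 and -0.03. The test of the difference between the pairs called 1 of 6434 features (0.0155%), with 632 at an unadjusted p under 0.05. That feature was Lars2, whose log2 fold change was 3.38 larger in replicates 3 and 4 (SE 0.28, adjusted p = 0.00182).

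**Figure D5:**
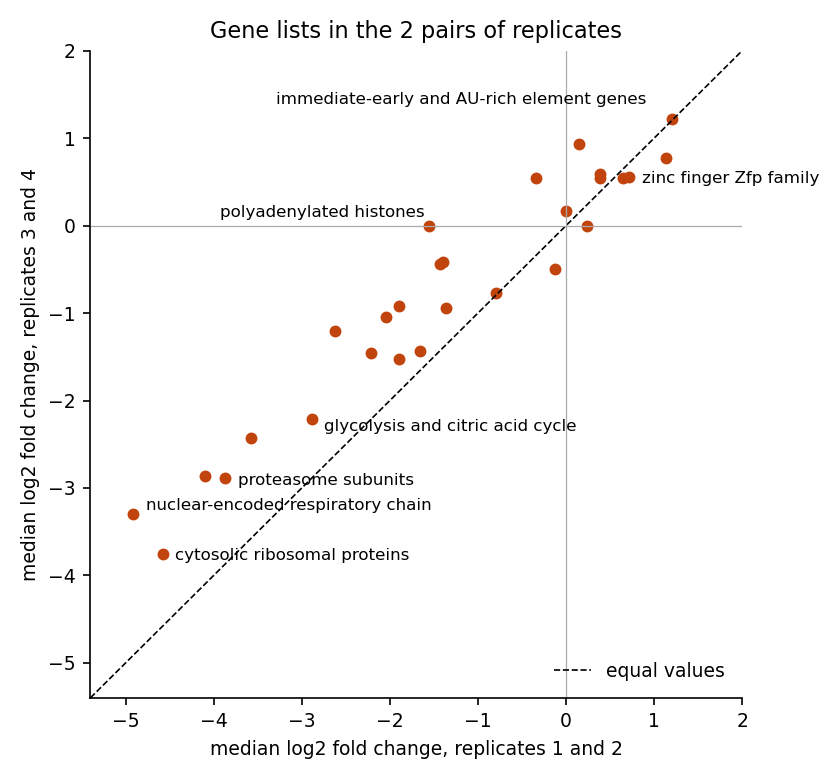
Median log2 fold change of IgG IP over Input of the 28 gene lists in replicates 1 and 2 (x axis) and in replicates 3 and 4 (y axis), with a dashed line of equal values. Most lists lie above the line, with the largest decreases, such as the respiratory chain at -4.91 and -3.29, smaller in replicates 3 and 4.

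The authors' deposited table holds their own DESeq2 comparison of IgG IP with Input. Of 12798 features with an adjusted p in the authors' deposited table, 2194 were higher (17.1%) and 2126 lower (16.6%) at an adjusted p under 0.05. The calls described here shared 1106 features with theirs among the higher and 1726 among the lower, which is 99.9% and 99.8% of the calls here and 50.4% and 81.2% of theirs, and 0 were opposite. For Lars2 the authors' deposited table gives 2.03 as the log2 fold change, with an SE of 0.53 and an adjusted p of 0.00153.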

How the data were processed

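The authors deposited one table of raw read counts per library for 20586 3′ UTR features, with the width, symbol and mm10 position of each. That build, mm10, and the tools featureCounts, DESeq2 (1.22.1), Bowtie2 (2.2.2) and Bowtie (1.2.3) are those that the submitters' processing notes name. Strand use and the annotation release are not given in the sources used here, so overlapping features (844 of those tested) are uncertain. The same table holds the authors' own DESeq2 fold changes, of which only those named as the authors' deposited table were used. Per the file headers, the authors also deposited log2 values of normalised counts and of their group means, which were not used here.

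Groups and replicate numbers came from the titles. Members, gene lists (36) and tests were chosen with earlier results of these data known. The test was the quasi-likelihood one of edgeR 4.0.16 (R 4.3.3) on the deposited counts of the 8 libraries, with TMM scaling and the replicate number as a block. The filter was edgeR's filterByExpr, set to a count of at least 10 and a total of at least 15. Calls had a Benjamini-Hochberg adjusted p under 0.05. The numbers were taken to pair the samples because the titles give same-numbered Input and IgG IP libraries library numbers close together. The deviations of same-numbered libraries from their group means correlated at 0.200, 0.113, 0.115 and 0.169 over 6434 features. Libraries of the same pair (1 and 2, or 3 and 4) with different numbers correlated at 0.103 to 0.147. These ranges overlap, so the correlations do not bear out pairing by single number within a pair. Scaled CPM are counts per 1000000 counts of the library total times its TMM factor, which ran from 0.94 to 1.23 in Input and from 0.56 to 1.62 in IgG IP.

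The width curve was a loess fit with span 0.5. Single library measures were compared with the exact sign-flip test. The 19 alternatives included DESeq2 1.42.0, other scalings, filters and blocks, thinning to 88013 counts, a width offset and each replicate left out. The test of IgG IP over Input was checked on simulated counts. It recovered 2.33% of 86 changes of 1 log2 unit and 35% of 80 changes of 2 log2 units. Of the 31 features called there, 1 was false. A feature that did not pass is therefore not shown to be unchanged.

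Named features were the 10 with the highest IgG IP share, the 12 largest changes in each direction, up to 4 members of each list per direction with the lowest adjusted p, the markers and Cpeb4. Of the table's symbols, 19543 matched RefSeq (GRCm38.p6). Sequences of the 3′ UTRs were not used here, nor were the CPEB4 IP libraries outside one alternative. Some features of the named set are not reported here.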

Additional observations from a re-analysis of the deposited data

Results flagged for a closer look

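The rise of Lars2 differed between the replicate pairs. Its log2 fold change was 0.41 in replicates 1 and 2 and 3.97 in replicates 3 and 4, and edgeR's test of that difference gave 3.38.

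Of 346 groups of 4 values examined, 26 held a value far from the other three by Dixon's criterion, where chance gives about 17.3. Among shares of counts without Lars2, features of 250 to below 500 bases were lowest in IgG IP replicate 4 (3.44%), Zfp genes highest in Input replicate 3 (0.82%) and adipogenic transcription factors lowest in Input replicate 1 (0.40%). The other values are in scaled CPM.

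Input replicate 1 held the only Input counts of Stk4 (5.10), Rps6ka3 (17.5), Ids (13.1) and Jmy (17.5). Input replicate 3 was lowest for Acsl1 (678), Uqcr10 (1974) and Rab34 (198) and highest for Zfp609 (52.4) and Bahcc1 (19.2). Input replicate 4 was highest for Plin2 (1039, the others between 631 and 652) and Gpam (45.03).

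In IgG IP replicate 1, Lox (352, the others between 41.3 and 55.3), Gpx1 (42.5) and Myl6 (79.0) were the highest. IgG IP replicate 2 was highest for Mrps18a (52.2), Rab1a (328) and Sra1 (7.45) and lowest for Ndst1 (74.5). Slc7a5 (309) and Rpl6 (9.22) were highest in IgG IP replicate 3, and Rab14 (378), Alg10b (206) and Hars (8.85) in IgG IP replicate 4. The values of Sra1, Rpl6 and Hars there were the only ones above 0 among the IgG IP libraries and lay at or under the limit of 3 counts.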

How the results depend on the processing

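In the fit described in the report there were 1107 higher and 1729 lower features. Fewer were called with replicates 3 and 4 alone (546 higher, 873 lower), a mean count of at least 50 (636 and 1006), thinning (459 and 584) and the width offset (607 and 925). More were higher in DESeq2's Wald test (1717) and in all 12 libraries (1690). With 1 replicate left out there were 610 to 1333 higher and 1210 to 1984 lower. Without the replicate block there were 924 and 1863, and 1 of 138 named features lost its call. The other alternatives kept both counts within 1.5 times. Spearman's rho of 0.66 with width became 0.54 in replicates 3 and 4 alone, 0.37 without a filter and 0.14 with the width offset, which removes the width curve by construction. A mean count of at least 50 gave 4 features that differed between the pairs, namely Lars2 (2.95), Fabp4 (2.42), AA474408 (2.63) and Fth1 (-2.07).

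With the width offset the direction turned for Lpl (-0.43), Nfkbia (0.20), Pabpc1 (0.13), Plin1 (0.65), Hist2h2aa1 (0.42), Hist2h2aa2 (0.11) and Fabp4 (3.21). Of these, Nfkbia, Pabpc1, Plin1, Hist2h2aa1 and Hist2h2aa2 had been called and lost their call. A further 24 of the 138 named features kept their direction but lost their call. In replicates 3 and 4 alone, 24 lost it. Rab14 turned at a mean count of at least 50 (0.31) and under thinning (0.010). Fabp4 was not called in the fit described in the report. Its direction also turned in replicates 3 and 4 alone (1.34), with DESeq2's size factors (0.019), without Lars2 (0.22) and in the Wald test (0.015). It turned too at a mean count of at least 50 (1.03) and under thinning (0.61). With 1 replicate left out, Fabp4 lay between -0.74 and 0.43. The causes were not tested. All 28 list medians kept their sign with DESeq2's size factors, in its Wald test, without Lars2 and without replicate 1, 2 or 3. With the width offset and at a mean count of at least 50, 24 of 28 did (the latter turned lipid metabolism, chromatin regulators, splicing factors and fibroblast markers), and 25 did without the block, without replicate 4, with the pairs summed and in either pair alone. The other alternatives turned 1 or 2 lists, among them extracellular matrix and motors with library totals. Depth limits IgG IP most, since 3 counts there stand for 8.85 to 22.4 scaled CPM.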

Other observations

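The features named here were chosen after their values were seen. Several wide 3′ UTRs had few or no counts in the shallower IgG IP libraries. Dad1, a subunit of the oligosaccharyltransferase, with 3077 bases, had 31, 21, 39 and 24 counts in Input and 0 in all 4 IgG IP libraries. It was just past the threshold (adjusted p = 0.0398 in edgeR's quasi-likelihood test). With so few Input counts, the 0 in IgG IP says little about the size of the difference. Timm10b, an import factor of the mitochondrial inner membrane with 2433 bases, had 241, 183, 112 and 224 counts in Input and 0, 0, 0 and 2 in IgG IP. Hras, a small GTPase with 2090 bases, had 580, 638, 478 and 846 counts against 0, 1, 7 and 4 (log2 fold change -5.34, SE 0.56, adjusted p = 2.72e-05 in edgeR's quasi-likelihood test). The respiratory chain gene Ndufa11 (2151 bases, -5.13), the mitochondrial ribosomal gene Mrpl35 (3096 bases, -4.68) and the ribosomal protein gene Rps15a (4722 bases, -3.89) belonged to lists whose other members are mostly narrow, and they too were lower at widths where the curve is above 0.

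In the other direction, Cwc22, a splicing factor with 354 bases, had 9, 1, 27 and 35 counts in Input and 9, 6, 69 and 93 in the shallower IgG IP libraries, and rose by 3.64 log2 units (SE 0.53, adjusted p = 0.000268 in edgeR). Gm20721, with 116 bases, had 13, 10, 8 and 17 counts in Input and 8, 4, 23 and 23 in IgG IP (2.58, SE 0.76, adjusted p = 0.0172).

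Akap5 and Lrrc17 lie on chromosomes 12 and 5, yet their Input counts ran side by side. The ratio of Akap5 to Lrrc17 counts was 0.970, 0.977, 0.978 and 1.03 in Input replicates 1 to 4. Whether reads of one sequence were counted in both features was not tested.

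Of 40 features with a small RNA gene of the RefSeq annotation inside, 23 were tested, of which 6 were higher and 4 lower in IgG IP, at a median of 0.41 (log2) that was -1.10 after width adjustment. Of all tested features, 17.2% were higher and 26.9% lower.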
